A study of Mus musculus with 6 samples.

Results

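Cytosolic ribosomal proteins are the protein parts of the ribosome that translates nuclear-encoded mRNA. The 53 genes described here were picked by symbol, by a rule that reads no measured value, from the 24041 genes of the count table. All 53 were found, and all 53 passed the filter on low counts. They make up 29 core proteins of the large (60S) subunit, 3 proteins of the P stalk and 21 proteins of the small (40S) subunit. A further 27 genes of the cytosolic ribosome, listed separately, serve below as a neighbouring set.

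The 6 libraries came from mouse cerebral cortex. Cells carrying green fluorescent protein (GFP) were sorted after electroporation, which drives plasmid DNA into cells with electric pulses. In the 3 wild-type libraries the cells had received GFP together with wild-type PRPF6, and in the 3 mutant libraries GFP together with mutant PRPF6. PRPF6 is a splicing factor of the U4/U6.U5 tri-snRNP. Both groups thus carried GFP and a PRPF6 plasmid, and there was no group without PRPF6. For the amino acid change in the mutant, the promoter of the plasmid, and the strain and age of the mice, nothing is stated in the sources used here. The labels do not tie the libraries of a group to separate animals. All p-values therefore measure spread among these 6 libraries alone, and some of it may be technical.

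Total counts per library ran from 45115122 to 60600617. The 8 genes of cortical identity were detected in all libraries. Their summed level was 561 CPM (counts scaled to a common library size with TMM factors) in mutant replicate 1. In the others it was 1803 to 3099 CPM. Other cells were present too. Summed levels of 12 red blood cell genes, in order of replicate number, were 992, 2872 and 17141 CPM in the wild-type libraries. In the mutant libraries they were 732, 1631 and 81.8 CPM. Wild-type replicate 3 also held the highest summed levels of 10 meningeal fibroblast genes (1718 CPM) and 9 endothelial genes (152 CPM). Of 14 radial glia markers 14 had a higher fitted mean with mutant PRPF6 (median log2 difference 0.60). Of these 6 were at an unadjusted edgeR p under 0.05, where 2.18% of tested genes were higher at that level. Of 12 markers of cortical neurons 12 had a lower fitted mean (median −0.93). Here 5 were at an unadjusted p under 0.05, where 1.20% of tested genes were lower at that level. None of either list passed edgeR's adjusted test. In order of replicate number, the radial glia genes summed to 2478, 3003 and 2106 CPM in the wild-type libraries. In the mutant libraries they summed to 5045, 3061 and 4366 CPM. The neuron genes summed to 4668, 3430 and 4025 CPM and then to 1813, 3508 and 2366 CPM. On both lists mutant replicate 2 lay close to wild-type replicate 2. The part of these cell types in the values of the ribosomal protein genes was not tested. Xist RNA and Y-linked genes were found together in some libraries, for example at 76.5 CPM for Xist and 52.0 CPM for Ddx3y in wild-type replicate 2. Such libraries thus held cells of both sexes, and sex was not uniform across libraries. Whether they pool animals is not stated in the labels.

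Ribosomal proteins assemble with ribosomal RNA in the nucleolus, and each is needed in about equal numbers per ribosome. In proliferating cells their mRNAs are among the most abundant. Most of them begin with a terminal oligopyrimidine (TOP) tract, a run of C and T at the start of the transcript, through which LARP1 and the mTOR pathway control their translation. The start regions show how far the members share this feature. RefSeq (build GRCm38.p6) gave start regions for 43 of the 53 genes. In 12 of these 43 (27.9%) the annotated start lay inside an unbroken run of at least 8 bases that were each C or T, read on the transcript's strand, against 4.59% of 27025 genes with a start region. The runs were 9 to 21 bases long. The 6 windows below, each 30 bases long with the annotated start at base 16, show what such a start looks like in members of both subunits and the stalk. Capitals mark the run of C and T. In Rpl34 the run begins before the window.

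Rpl7a, chr2:26910792-26910821, plus strand: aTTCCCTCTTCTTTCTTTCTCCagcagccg
Rpl14, chr9:120571502-120571531, plus strand: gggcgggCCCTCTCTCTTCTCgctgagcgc
Rpl28, chr7:4792950-4792979, plus strand: ccgcctctcgtgTCTCTCTTTCCgtctccg
Rpl34, chr3:130730323-130730352, minus strand: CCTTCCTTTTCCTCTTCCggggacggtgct
Rplp2, chr7:141447636-141447665, plus strand: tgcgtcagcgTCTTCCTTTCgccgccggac
Rps6, chr4:86857353-86857382, minus strand: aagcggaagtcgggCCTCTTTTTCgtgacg

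Annotated starts that lie a few bases away from the tract are missed by this count. With the run allowed anywhere from 50 bases before to 50 bases after the start, 36 of 43 members (83.7%) had one, against 39.3% of genes. The letters CCGGAAG, the core of an ETS factor site, stood on either strand of the 300-base region in 18 of 43 members (41.9%), against 9.93% of genes. Both are matches of letters and say nothing of binding or of translation in these cells.

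The 53 genes did not differ between mutant and wild-type PRPF6 beyond the spread between libraries. With edgeR's quasi-likelihood F-test, adjusted by Benjamini-Hochberg over 14451 genes, 0 of 53 passed (adjusted p = 1.00 for each), where 0% of all tested genes passed in either direction. At an unadjusted p under 0.05 stood 0 of 53 members, against 2.18% of tested genes higher and 1.20% lower with mutant PRPF6. The smallest unadjusted p of a member was 0.240. limma-voom also called 0 of 53. DESeq2 called 0 of the 49 members to which it gave an adjusted p, and gave none to Rpl26, Rpl30, Rpl34 and Rps21. In both tools 0 of 53 had an unadjusted p under 0.05. In 0 of 53 members did the 3 mutant libraries lie wholly above the 3 wild-type libraries (4.60% of tested genes) or wholly below them (4.54%).

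Fitted means were lower with mutant PRPF6 in 40 members and higher in 13, and the median log2 difference was −0.047, where 49.8% of all tested genes were higher and their median was −0.0013. Differences ran from −0.25 for Rps12 to 0.20 for Rpl30, with a median standard error of 0.18. The precision was good enough to bound most of them. In 42 members the 95% interval of the difference lay inside a 1.5-fold change in either direction, and in 52 inside a 2-fold change. The 11 with wider intervals were Rpl10a, Rpl11, Rpl23, Rpl26, Rpl30, Rpl34, Rpl38, Rps12, Rps20, Rps21 and Rps28. The widest belonged to Rpl26, from −1.46 to 1.83.

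**Figure D1:**
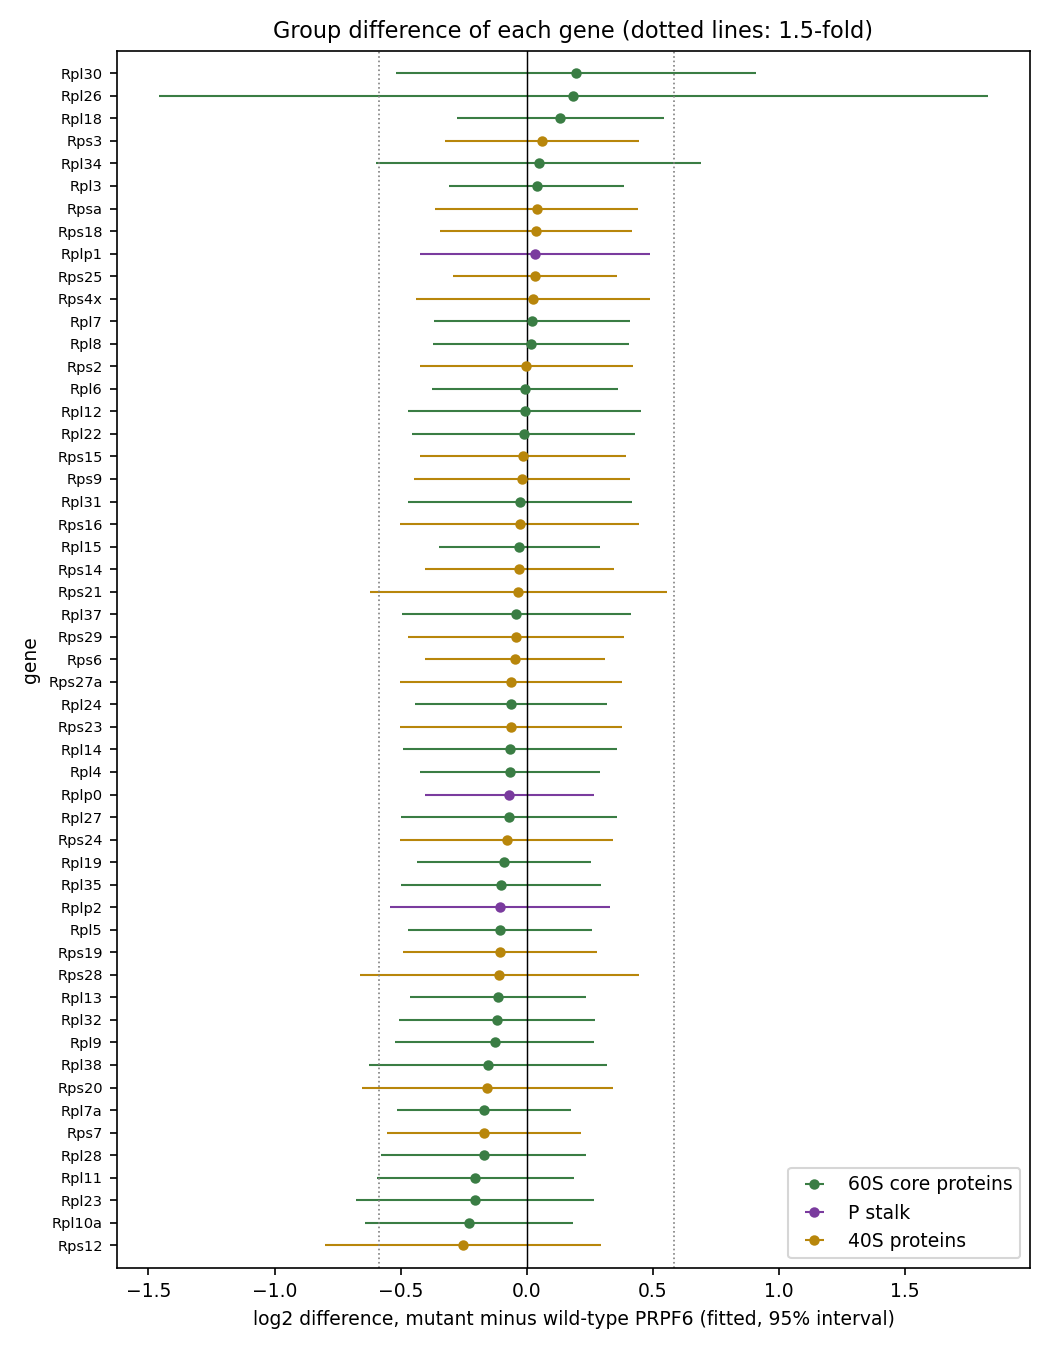
Fitted log2 difference (x axis, mutant minus wild-type PRPF6) of each of the 53 genes (y axis, ordered by difference), with points coloured by part of the ribosome, bars for the 95% interval and dotted lines at a 1.5-fold change. The bars of all 53 genes cross 0, and the widest is that of Rpl26, from −1.46 to 1.83.

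In order of replicate number, the summed level of the 53 genes was 11633, 12362 and 12883 CPM for the wild-type libraries, and 12358, 9676 and 13558 CPM for the mutant libraries. All values per library below keep this order. Mutant replicate 2 was lowest and mutant replicate 3 highest, so the groups overlapped. The wild-type mean was 12293 ± 628 CPM (SD, n = 3) and the mutant mean 11864 ± 1988 CPM (SD, n = 3). In cells sequenced in bulk, fewer cells of a type and less RNA per cell cannot be told apart. As a share of each library's counts the 53 genes took 1.23% ± 0.083 with wild-type and 1.19% ± 0.17 with mutant PRPF6, and with the other 27 genes 1.74% ± 0.12 and 1.67% ± 0.25 (SD, n = 3 each).

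The genes moved together over the 6 libraries, in which mutant replicate 2 was lowest for most of them. Over the 6 libraries the median correlation between 2 members was 0.83 on the log2 CPM scale, a description over points that share library, depth and preparation. It was 0.87 within the other 27 cytosolic genes, 0.51 within 77 mitochondrial ribosomal proteins and 0.29 within 70 ribosome biogenesis factors. Mutant replicate 2 was the lowest of the 6 libraries for 49 members (1813 of 14451 tested genes), and mutant replicate 3 the highest for 34 (2576 of 14451). The median range of a member from lowest to highest library was 1.48-fold, and 1.22-fold without mutant replicate 2. The correlation without that library was not computed. Wild-type replicate 3 was highest for 12, mutant replicate 1 for 6 and wild-type replicate 2 for 1. The exceptions at the low end were Rpl22 and Rpl18, lowest in wild-type replicate 1, Rpl4, lowest in mutant replicate 1, and Rpl26, lowest in wild-type replicate 3.

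**Figure D2:**
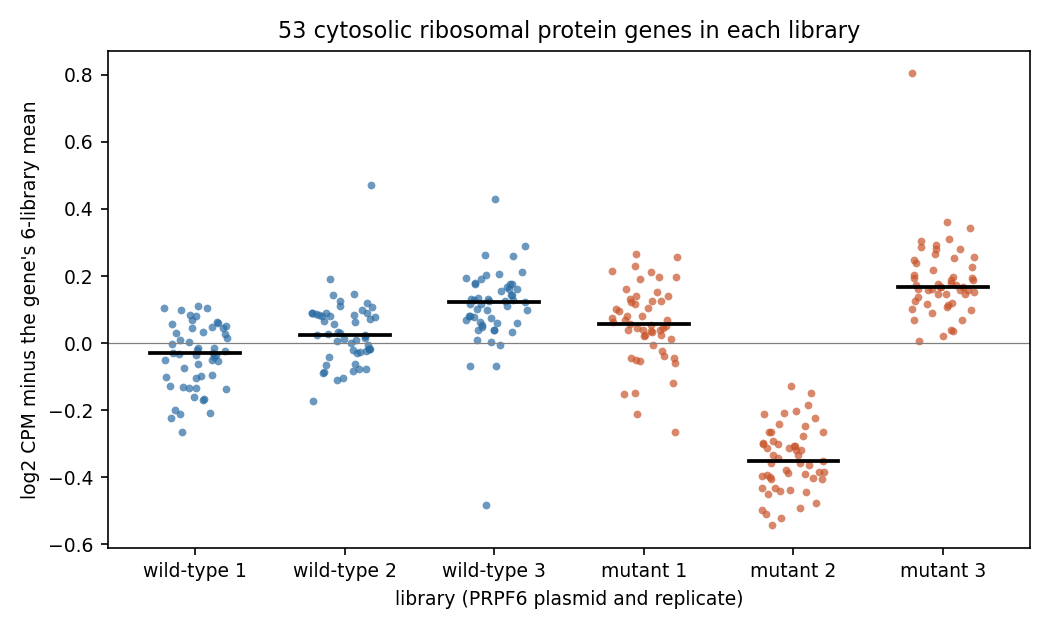
Log2 CPM of each of the 53 genes minus its mean over the 6 libraries (y axis), by library (x axis; blue wild-type, orange mutant PRPF6); each point is a gene and each black line a median. The points of mutant replicate 2 lie below 0, with a median of −0.35, and those of mutant replicate 3 have the highest median, 0.17.

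Within groups the members varied less than most genes. The median within-group SD of log2 CPM was 0.22, against 0.42 over all tested genes, and 52 of 53 members lay below that figure. The comparison was not matched for level. Of the 53 members 43 had a mean over 100 CPM, while the tested genes include many of low count. The low spread was not particular to the members. The median SD was 0.22 for the other 27 cytosolic ribosomal proteins and 0.19 for the 16 other TOP genes of translation. It was 0.22 for the mitochondrial ribosomal proteins and 0.26 for the ribosome biogenesis factors. When each gene was expressed relative to the sum of the 53 in its library, the median SD of the members fell to 0.090. On that relative scale 2 members, Rpl3 and Rpl30, had all mutant libraries above all wild-type libraries (5.73% of tested genes did). In 4 members, Rpl10a, Rpl23, Rps7 and Rps19, all lay below (1.74%). The shares over tested genes are not a like comparison, since the members themselves form the sum. Dividing by it takes out variation that the members share and puts it into other genes. Rpl3, which lies close to the catalytic centre, made up 3.33%, 3.50% and 3.44% of the members' sum in the wild-type and 3.56%, 3.81% and 3.61% in the mutant libraries. Rps7 made up 2.35%, 2.53% and 2.49% and then 2.21%, 2.27% and 2.31%. The relative differences were 0.097 and −0.12 in log2 units, and none of the 6 genes passed the test on the CPM scale. The row of Rpl30 made up 19.5% to 23.4% of its sum with a pseudogene that shares reads with it.

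The P stalk recruits the GTPases of elongation, with Rplp0 as its base and dimers of Rplp1 and Rplp2 as its arms. Rplp0 was at 495, 583 and 602 CPM in the wild-type and at 572, 471 and 559 CPM in the mutant libraries. Rplp1 was at 128, 131 and 152 CPM and then at 159, 104 and 157 CPM. Rplp2 was at 124, 144 and 157 CPM and then at 132, 106 and 157 CPM. All 3 were lowest in mutant replicate 2, and the groups overlapped in each. Their log2 differences were −0.069 ± 0.15, 0.032 ± 0.20 and −0.10 ± 0.19 (SE). Per kilobase of transcript the mean levels were 403, 278 and 142 CPM, so the base stood above the arms on that scale.

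Among the core proteins of the 60S subunit 7 were higher and 22 lower (median log2 difference −0.066). Rpl5 and Rpl11 form, with 5S RNA, the particle that binds Mdm2 when ribosome assembly is disturbed. Rpl11 was at 161, 166 and 159 CPM with wild-type and at 135, 118 and 170 CPM with mutant PRPF6. Rpl5 was at 308, 302 and 317 CPM and then at 284, 240 and 338 CPM. For both, mutant replicates 1 and 2 lay below and mutant replicate 3 above the wild-type libraries. The log2 differences were −0.20 ± 0.17 for Rpl11 and −0.11 ± 0.16 for Rpl5 (SE). Mdm2 itself was at 149, 124 and 130 CPM with wild-type and at 135, 117 and 121 CPM with mutant PRPF6.

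Rpl10a (chromosome 17, 28328471 to 28331033, plus strand, GRCm38) had the lowest fitted difference of the 60S genes, −0.23 ± 0.18 (SE), with 123, 122 and 128 CPM in the wild-type and 105, 86.2 and 127 CPM in the mutant libraries. Its groups overlapped through mutant replicate 3. Rpl23, which like Rpl5 and Rpl11 can bind Mdm2, was at 131, 139 and 158 CPM and then at 138, 90.0 and 143 CPM, with a log2 difference of −0.21 ± 0.21 (SE). Its low value in mutant replicate 2, 0.65 log2 units under the mean of the other 5 libraries, was the deepest of any member. Rpl28 was at 110, 103 and 116 CPM with wild-type and at 106, 78.6 and 108 CPM with mutant PRPF6. It too overlapped between groups. At the other end, Rpl18 was at 207, 264 and 248 CPM and then at 299, 211 and 278 CPM (0.13 ± 0.18, SE). Here mutant replicates 1 and 3 stood above all wild-type libraries, and mutant replicate 2 did not.

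Rpl13 had the highest level per kilobase of the 53, 948 CPM on average. It was at 704, 799 and 802 CPM with wild-type and at 748, 594 and 788 CPM with mutant PRPF6. Rpl32 followed with 546 CPM per kilobase, Rps14 with 515 and Rps2 with 483. The lowest levels per kilobase were 8.62 CPM for Rpl26 and 25.6 CPM for Rps20, whose annotated transcript is 3706 bases long. The row of Rpl26 made up 1.73% to 3.97% of its sum with Gm15772, a pseudogene that shares reads with it. The levels per kilobase use the shortest well-supported principal transcript, and for 7 members the longest one was over 1.5 times as long. Rpl22, for example, was at 143 CPM per kilobase on the shortest and at 33.0 on the longest.

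Rpl22 is a 60S protein that is not needed for translation as such and has a close paralogue, Rpl22l1, whose mRNA it is known to control. Rpl22 was at 57.6, 71.0 and 75.2 CPM in the wild-type and at 68.2, 58.1 and 75.9 CPM in the mutant libraries. Its log2 difference was −0.011 ± 0.19 (SE). Rpl22l1 was at 32.6, 30.3 and 36.7 CPM and then at 34.7, 25.9 and 44.2 CPM (0.074 ± 0.26, SE). Neither differed beyond the spread between libraries. Of the other paralogues, Rps27l, also known as a p53 target, was at 92.3, 103 and 84.4 CPM and then at 117, 79.3 and 146 CPM, Rpl3l and Rpl10l had no count in any library, and 0 of the 5 tested paralogues had an unadjusted p under 0.05.

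Of the 40S proteins 5 were higher and 16 lower (median log2 difference −0.034). Rps12 (chromosome 10, 23785183 to 23787275, minus strand, GRCm38) had the lowest fitted difference of all members, −0.25 ± 0.24 (SE), with 51.9, 47.3 and 67.7 CPM with wild-type and 53.2, 35.8 and 51.1 CPM with mutant PRPF6. Only mutant replicate 2 lay outside the wild-type range. Rps7, another Mdm2-binding protein, was at 273, 312 and 320 CPM and then at 273, 220 and 313 CPM (−0.17 ± 0.17, SE). Its groups overlapped through mutant replicate 3. Rps3, which lines the mRNA entry channel, was at 335, 325 and 352 CPM and then at 372, 278 and 407 CPM (0.062 ± 0.17, SE). In Rps3 the mutant libraries thus held the 2 highest values and the lowest.

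Rpsa, which is also the laminin receptor precursor and is mutated in isolated congenital asplenia, was at 361, 431 and 445 CPM with wild-type and at 402, 355 and 514 CPM with mutant PRPF6 (0.039 ± 0.18, SE). Rps27a, made as a fusion with ubiquitin, was at 170, 173 and 197 CPM and then at 172, 134 and 212 CPM (−0.061 ± 0.19, SE). Both were highest in mutant replicate 3 and lowest in mutant replicate 2. Rps4x, on the X chromosome, was at 203, 187 and 209 CPM and then at 217, 146 and 245 CPM (0.023 ± 0.20, SE). Its lowest and highest values fell in mutant replicates 2 and 3. Xist was at 1.92 and 2.65 CPM in these libraries, and any relation of Xist to Rps4x was not tested. Rps2 was at 425, 507 and 516 CPM and then at 489, 376 and 581 CPM (−0.0018 ± 0.18, SE). Rps14, a gene of the region deleted in the 5q- syndrome, was at 285, 313 and 334 CPM and then at 326, 248 and 338 CPM (−0.030 ± 0.16, SE). Both were highest in mutant replicate 3 and lowest in mutant replicate 2. Rps19, the gene most often mutated in Diamond-Blackfan anaemia, was at 340, 368 and 380 CPM and then at 358, 267 and 385 CPM (−0.11 ± 0.17, SE). Its mutant values enclosed the wild-type ones.

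Rps20 was at 97.4, 88.3 and 114 CPM with wild-type and at 95.9, 66.3 and 107 CPM with mutant PRPF6 (−0.16 ± 0.22, SE). Rps21 was at 40.1, 35.2 and 41.5 CPM and then at 41.8, 26.7 and 45.6 CPM (−0.034 ± 0.26, SE). Rps23, which sits in the decoding centre, was at 208, 210 and 244 CPM and then at 245, 158 and 230 CPM (−0.063 ± 0.19, SE). In all 3, mutant replicate 2 was lowest and the groups overlapped. Rps25, which binds viral internal ribosome entry sites, varied least of all, from 139 to 165 CPM, a 1.19-fold range over the 6 libraries.

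The direction over the 53 genes turned with 1 library. Without mutant replicate 2, 44 members were higher and 9 lower, and the median log2 difference was 0.093. Without mutant replicate 3, 2 were higher and 51 lower, with a median of −0.17. Without wild-type replicate 3 the split was 23 higher and 30 lower (median −0.010), and without wild-type replicate 1 it was 8 and 45 (median −0.084). In the fit without mutant replicate 2, as in every other, 0 of 53 members were under an unadjusted p of 0.05.

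**Figure D3:**
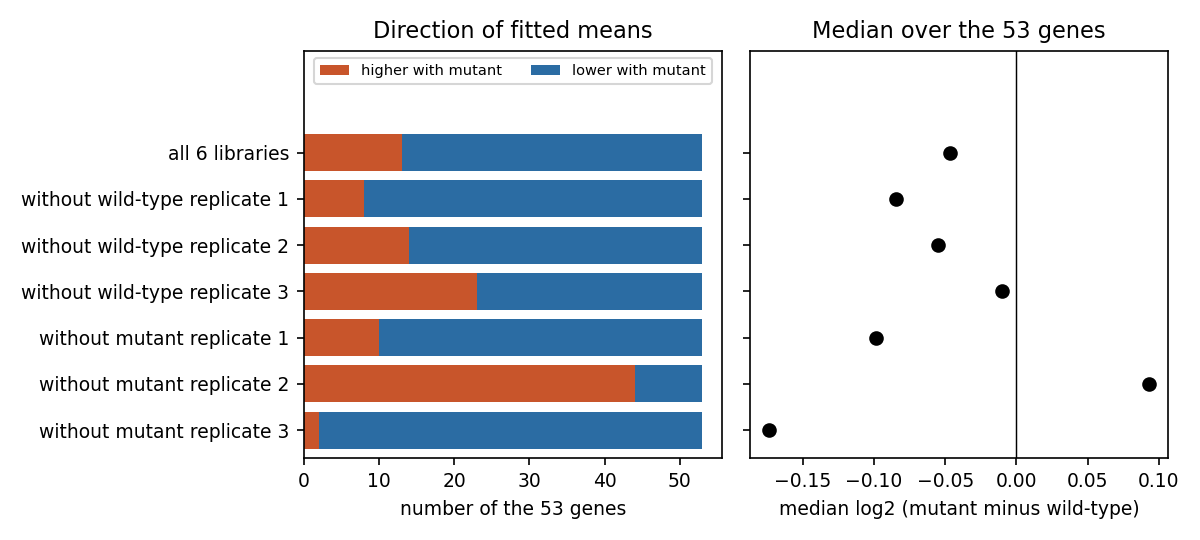
Left, number of the 53 genes (x axis) with a higher (orange) or lower (blue) fitted mean with mutant PRPF6, with all 6 libraries and with each library left out (y axis); right, the median log2 difference over the 53 genes in the same fits. Without mutant replicate 2 the split is 44 higher and 9 lower, and without mutant replicate 3 it is 2 and 51.

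In mutant replicate 2 all 53 members lay below the mean of the other 5 libraries, by 0.16 (Rps25) to 0.65 (Rpl23) in log2 units, with a median of −0.42. Other genes of translation were low there as well. The median was −0.45 for the other 27 cytosolic ribosomal proteins (26 lower), −0.31 for 16 other genes of translation with TOP tracts (15 lower), and −0.29 for the 77 mitochondrial ribosomal proteins (73 lower). For 70 ribosome biogenesis factors it was −0.068 (44 lower), and over all tested genes 0.073. Eef1a1, the factor that brings aminoacyl-tRNA to the ribosome, was at 1771, 1931 and 2166 CPM with wild-type and at 1813, 1681 and 2118 CPM with mutant PRPF6.

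Transcript length moved with this library as well. The members are short, with a median annotated length of 802 bases, against 2907 bases over 13091 other tested coding genes. In mutant replicate 2, other coding genes of up to 1000 bases (776 genes) lay at a median of −0.27 against the other 5 libraries, those of 1000 to 2000 bases at −0.084, those of 2000 to 4000 bases at 0.082 and those over 4000 bases at 0.24. The members, at −0.42, lay below the shortest of these classes. This library also had the highest level of all 10 microglia markers, which summed to 878 CPM there, to 37.5 and 46.6 CPM in the other mutant libraries and to 127 to 332 CPM in the wild-type libraries. None of the 10 was at 0 in any library. The 9 endothelial genes summed to 62.0 CPM there and to 5.01 and 1.07 CPM in the other mutant libraries. In the wild-type libraries they summed to 0.773, 6.13 and 152 CPM. Medians against the other 5 libraries were 3.26 for 4 tested endothelial, 1.14 for meningeal fibroblast and 0.63 for red blood cell genes. They were 0.30 for cortical neuron, 0.020 for radial glia and −0.013 for intermediate progenitor genes. The part of length or of these cell types in the low values of the members was not tested.

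**Figure D4:**
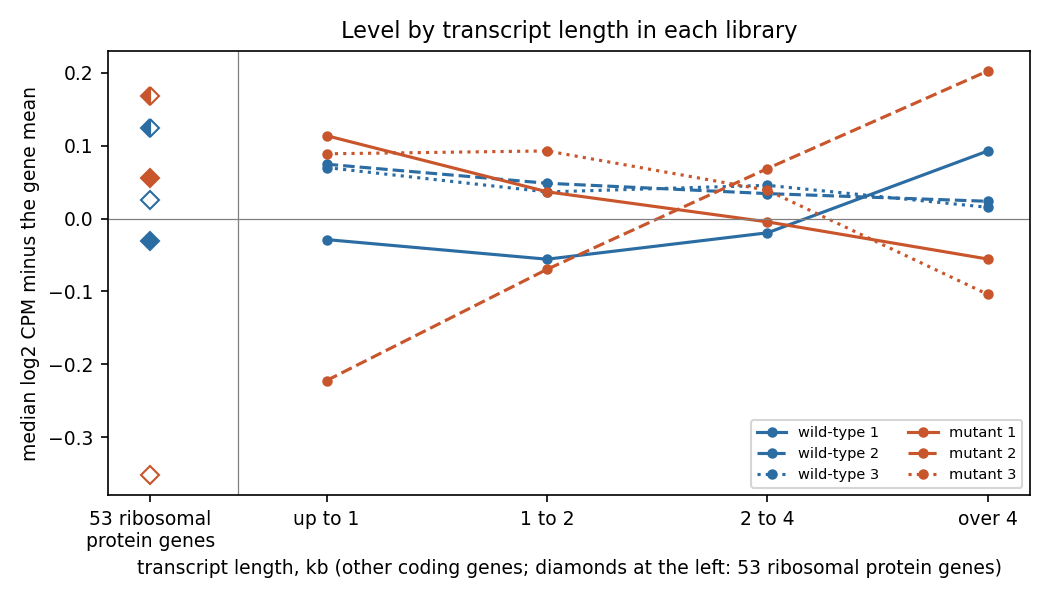
Median log2 CPM minus each gene's 6-library mean (y axis) for other coding genes in 4 classes of transcript length in kilobases (x axis), one line per library (blue wild-type, orange mutant PRPF6), with diamonds at the left for the 53 ribosomal protein genes. The line of mutant replicate 2 rises with length from −0.22 to 0.20, and its diamond lies at −0.35.

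Not all counts of these genes belong to a single row of the table. Ribosomal protein genes have many processed copies in the genome, and some overlap a neighbouring gene. Where a read matches more than 1 gene, RSEM apportions it, and expected counts then need not be whole numbers. Of the 318 member values (53 genes in 6 libraries) 73 were not whole (23.0%), in 13 members (24.5%), against 11.5% of all genes in the table and 15.7% of the 12640 genes with a mean count over 100, a level that each member exceeded. A value was taken as whole within 1e-09. Within 0.015 instead, 72 values in the same number of members were not whole. They were Rpl5, Rpl14, Rpl26, Rpl30, Rpl31, Rpl32, Rpl34, Rpl37, Rplp2, Rps2, Rps19, Rps23 and Rps25. Among the other 27 cytosolic genes 9 had such values.

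For 12 of the 13 members rows that share reads with the gene were found by addition. For each, exactly 1 other row, or 1 pair of rows, among the 2774 with a value that was not whole gave a sum that was whole in all 6 libraries, within 0.01 for a single row (8 members) and 0.015 for a pair (4 members). Rps2 was not searched because its values were not whole in 2 libraries only. Rpl5 was matched with Fam69a (Dipk1a in RefSeq), Rps25 with Ccdc84, Rpl31 with Tbc1d8 and Rpl31-ps12, and Rpl32 with Cand2 and Gm6251 (Rpl32l in RefSeq). Fam69a, Ccdc84, Tbc1d8 and Cand2 are neighbours whose annotated ends overlap the ribosomal protein gene. The remaining partners lie on other chromosomes. A whole sum shows that rows share some reads, not how many, and a partner row can also hold reads of its own.

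Rpl26 binds p53 mRNA beside its place in the 60S subunit. Its row held 173, 363 and 154 counts with wild-type and 207, 171 and 329 with mutant PRPF6, or 1.73% to 3.97% of the sum of its row and that of Gm15772. The latter, annotated by RefSeq as a transcribed pseudogene on chromosome 5, held 5906 to 10335 counts. Rpl26 alone was thus at 3.71, 5.95 and 3.07 CPM and then at 3.57, 3.44 and 7.49 CPM. With both rows added it was at 161, 175 and 178 CPM with wild-type and at 173, 122 and 189 CPM with mutant PRPF6. Its log2 difference went from 0.19 ± 0.71 to −0.087 ± 0.19 (SE), and its lowest library became mutant replicate 2.

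Rpl30 and Rpl34 were also low beside their partners. Rpl30, at 14.96, 14.8 and 17.5 CPM with wild-type and 19.1, 13.9 and 21.2 CPM with mutant PRPF6, made up 19.5% to 23.4% of its sum with Gm12191, a transcribed pseudogene on chromosome 11. Added together they were at 74.0, 75.8 and 82.5 CPM and then at 83.6, 59.5 and 98.1 CPM. Rpl34, at 26.1, 29.7 and 34.9 CPM and then at 35.1, 21.7 and 36.9 CPM, made up 29.2% to 33.7% of its sum with Rpl34-ps1. Their log2 differences after addition were 0.054 ± 0.21 and 0.0025 ± 0.21 (SE). Rpl30, the member with the highest fitted difference on its own row, thus came close to 0. In all 12 members mutant replicate 2 was the lowest library with the rows added, as it already was without them in all but Rpl26.

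**Figure D5:**
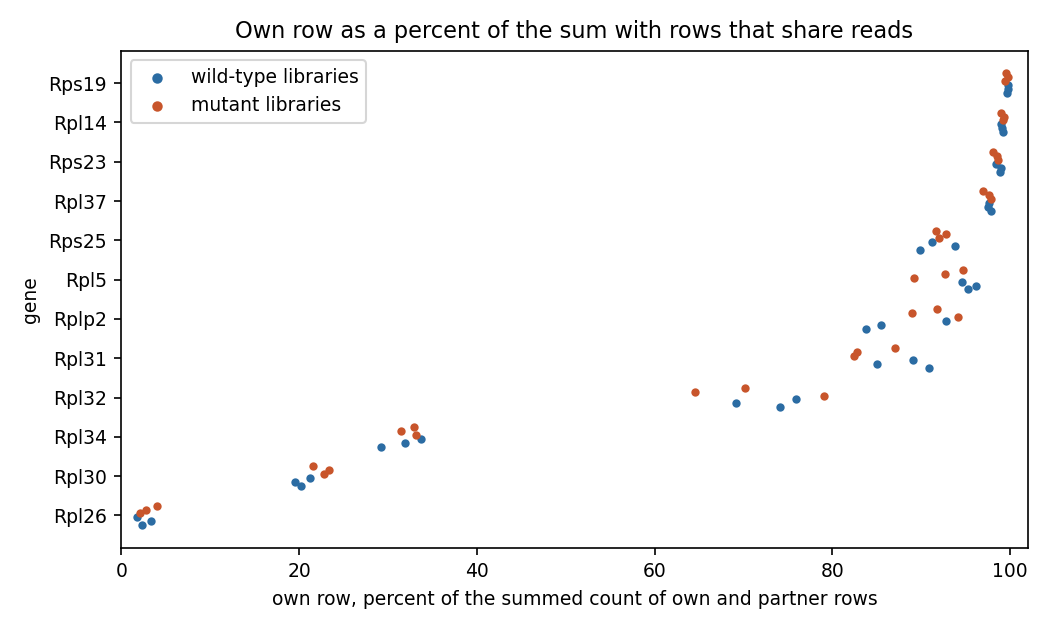
Count of the gene's own row as a percent of its sum with the partner rows (x axis) for the 12 genes matched with rows that share reads (y axis), one point per library (blue wild-type, orange mutant PRPF6). Rpl26, Rpl30 and Rpl34 made up 1.73% to 33.7% of the sum, and the other 9 genes 64.6% to 99.8%.

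For the other 9 members the own row made up most of the sum, from 64.6% to 79.0% in Rpl32 and from 82.5% to 90.9% in Rpl31 up to 99.4% to 99.8% in Rps19. In Rpl32 nearly all the rest was the row of Cand2. Its counts were whole or nearly whole, for example 4724 and 8185.07 in wild-type replicates 1 and 2. That row may hold mostly reads of Cand2 itself, so the share of Rpl32 says little of shared reads. The share of Rplp2 lay at 83.8%, 85.5% and 92.9% in the wild-type and at 94.1%, 88.9% and 91.8% in the mutant libraries of its sum with Wdr89 and Rplp2-ps1. With those rows added the log2 difference of Rplp2 was −0.17 ± 0.17 in place of −0.10 ± 0.19 (SE). In a fit of the whole table with all 12 sums in place, a choice made after the data were seen, 13 members were higher and 40 lower, and 0 passed the test.

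Genes that work beside the ribosomal proteins gave no call either (edgeR, 0 past the adjusted threshold in each list). Of the other 27 cytosolic ribosomal proteins 3 were higher and 24 lower (median log2 difference −0.072), with 0 at an unadjusted p under 0.05. Rpl29 had the lowest difference there, −0.20 ± 0.16 (SE). Of the 16 other TOP genes of translation 6 were higher and 10 lower (median −0.053), and Pabpc1, the poly(A)-binding protein, was at 170, 202 and 251 CPM and then at 144, 157 and 221 CPM. Of the 77 mitochondrial ribosomal proteins 50 were higher and 27 lower (median 0.036), again with 0 at an unadjusted p under 0.05. Mrpl9 and Mrpl48 had the smallest p there, with differences of 0.34 ± 0.21 and 0.38 ± 0.25 (SE).

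The 70 ribosome biogenesis factors were split into 33 higher and 37 lower (median −0.018). At an unadjusted p under 0.05 stood 2 of 70, both higher, where 2.18% of all tested genes were higher at that level. Rrp12, an export factor of pre-ribosomes, was at 23.8, 28.2 and 25.9 CPM with wild-type and at 37.6, 49.7 and 50.3 CPM with mutant PRPF6 (0.82 ± 0.22, SE). Polr1b, a subunit of RNA polymerase I, was at 40.1, 37.0 and 39.0 CPM and then at 52.1, 50.01 and 59.5 CPM (0.48 ± 0.19, SE). In both genes the mutant libraries lay above the wild-type ones, as did 4 of the 70 in all (4.60% of tested genes), and edgeR's adjusted p was 1.00 for each. Of 18 regulators of TOP mRNAs and ribosomal genes, 12 were higher and 6 lower (median 0.12). Only 1 had an unadjusted p under 0.05, and it was higher (2.18% of tested genes). This was Rptor, the scaffold of mTOR complex 1, at 34.3, 35.1 and 35.0 CPM and then at 64.1, 70.8 and 44.6 CPM (0.78 ± 0.22, SE). Larp1 was at 193, 148 and 146 CPM and then at 143, 181 and 169 CPM (0.019 ± 0.17, SE).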

How the data were processed

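The authors deposited unscaled expected counts, which came from RSEM on mm10 per the submitters' processing notes. Version, aligner, annotation and strand setting were not given in the sources used here, so overlapping genes cannot be told apart by strand. Per the labels' protocols, cDNA was amplified from picogram amounts of RNA with a SMART-Seq kit, without molecular identifiers, so a read is not an independent molecule.

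These counts were rounded to whole numbers, filtered with filterByExpr (14451 of 24041 genes kept) and scaled with TMM factors (0.972 to 1.02). Groups were compared with edgeR 4.0.16 in R 4.3.3, by a two-sided quasi-likelihood F-test with robust dispersion, no covariate, Benjamini-Hochberg adjustment and a threshold of 0.05. A standard error is the log2 difference divided by the square root of F, and 95% intervals use the test's degrees of freedom. Log2 CPM uses a pseudocount of 0.5 counts. Levels per kilobase use the shortest GENCODE M21 principal transcript with the best support. 1 count was worth 0.0164 to 0.0228 CPM.

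The rule for the members reads no measured value, but the members and gene lists were chosen with earlier results of these data known. Members named with values were the 6 highest and 6 lowest differences, those under an unadjusted p of 0.05, the 6 with most values that were not whole, the 4 widest spreads, the 4 highest and 2 lowest levels per kilobase and 9 of special role, 30 in all. Of other lists, up to 4 genes under an unadjusted p of 0.05, or else the 2 of smallest p, could be named. Eef1a1, Larp1, Mdm2 and Rpl22l1, and members singled out by a count, were named after their values were seen. The steps were tested on simulated data, where a minimum recovery of known changes was required only at a low dispersion. The common coefficient of variation fitted between libraries of a group was 0.66. How often true changes would be called at that spread is not given here. Alternatives were DESeq2 1.42.0 and limma-voom (limma 3.58.1), other scalings and filters, a replicate block, whole-count genes alone, and leaving out each library. The addition of rows that share reads was chosen after seeing the data.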

Additional observations from a re-analysis of the deposited data

How the results depend on the processing

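In each of 17 alternatives 0 members passed the test, and 0 had an unadjusted p under 0.05. These fits held all 53 members, except that with whole-count genes alone, which held 40, and DESeq2 gave 4 of the 53 no adjusted p. The count of genes past the threshold over the whole table was 0 in each fit except DESeq2's, which called 6, all higher with mutant PRPF6, gave no adjusted p for 8695 genes and had 642 at an unadjusted p under 0.05 (edgeR 489). The median difference of the members kept its sign except without mutant replicate 2 and ran from −0.17 to 0.093 when 1 library was left out. The log2 ratio of the summed level, −0.064, ran from −0.17 to 0.076. Upper-quartile scaling moved the split from 13 higher and 40 lower to 10 and 43, and genes with whole counts alone gave 9 and 31. With a replicate block the median was −0.069, the summed ratio −0.064 and the count of members called 0. Whether replicate numbers pair the samples is not known. The deposited columns carry the same numbers in both groups. Deviations of same-numbered libraries from their group means correlated at 0.080, 0.056 and −0.22, and not every library correlated best with its own number. With so few libraries per group these correlations cannot decide on pairing.

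Among the 30 named members the sign of 22 turned in some alternative and that of 8 in none. Rps4x was −0.0052 with upper-quartile factors, −0.0087 with limma-voom and −0.0085 with the replicate block, and Rpl26 was −0.087 with shared rows added. With 1 library left out the log2 differences ran as follows: Rps4x −0.14 to 0.21, Rpl34 −0.090 to 0.25, Rpl3 −0.058 to 0.14, Rplp1 −0.068 to 0.21, Rpsa −0.12 to 0.15, Rps2 −0.16 to 0.15, Rpl22 −0.12 to 0.085, Rps23 −0.18 to 0.11, Rps21 −0.19 to 0.17, Rps14 −0.11 to 0.098, Rps27a −0.24 to 0.093, Rps19 −0.21 to 0.035, Rpl5 −0.24 to 0.0097, Rpl32 −0.25 to 0.026, Rpl14 −0.21 to 0.092, Rpl13 −0.20 to 6.0e-05, Rps20 −0.30 to 0.022, Rplp0 −0.15 to 0.014, Rplp2 −0.25 to 0.032, Rpl26 −0.28 to 0.51, Rps3 −0.055 to 0.21 and Rps25 −0.022 to 0.10. The cause of these turns was not tested. Rpl26, with the lowest counts of the members, had the widest standard error, 0.71.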
